A study of Mus musculus with 6 samples.

Results

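Expression of 7 genes that handle thyroid hormone was followed in mouse astrocyte cultures treated with an inhibitor of glycogen synthase kinase 3 (GSK-3). The genes were Dio2 and Dio3, which encode deiodinases, the hormone transporter gene Slco1c1, the receptor genes Thra and Thrb, and the hormone-induced genes Hr and Klf9. They were taken by name, through the transcript accession of each probe, as 7 of 13051 named genes tested. Dio2 was selected on its measured rise in Ro over control cultures, and the other genes for their place in the same pathway. All were chosen with earlier results of these data known. Of 41174 non-control probes on the array 12 belonged to these genes, and 11 of the 12 passed the filter on dim signals (well above background on each array of 1 or more groups). The exception was a Thrb probe that was not well above background on any of the 6 arrays. For Dio2, Dio3, Slco1c1 and Hr no further probe was found beside the one used, so their values have no check from another probe.

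The study measured RNA with 6 one-colour Agilent arrays, 2 per group, in primary cultures of cortical and striatal astrocytes from wild-type C57BL/6J mice aged 1 day. Washout cultures received 1 µM Ro3303544, a small-molecule GSK-3 inhibitor, for 48 h, followed by another 48 h in growth medium without the compound. Ro cultures received 1 µM Ro3303544 for 48 h, and control cultures were kept in medium with 10% fetal bovine serum, with DMSO at a matched concentration according to the treatment protocol. All cultures had been exposed for 2 days to cytosine arabinoside, which kills dividing cells, to deplete microglia. The labels put cells positive for the microglial protein Iba1 below 1% at 12 days in vitro, and RNA integrity numbers at 6.5 or more. Treatment began at 13 days in vitro. Ro and control cultures were therefore harvested at 15 days and washout cultures at 17 days, with no untreated cultures of that age. The labels do not say whether the 2 samples of a group came from separate preparations, so that the p-values measure the spread between these samples, which may be technical. Hormone was not measured, and the labels give no hormone content for the serum.

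Thyroid hormone reaches the brain largely as thyroxine, a precursor with little activity of its own. Type 2 deiodinase, the product of Dio2, removes an iodine from its outer ring and makes triiodothyronine, the form that binds the nuclear receptors with high affinity. Type 3 deiodinase, the product of Dio3, removes an inner-ring iodine and inactivates both forms. In the brain Dio2 is known mainly from astrocytes and from tanycytes, the glia that line the third ventricle, and astrocytes are thought to supply neighbouring cells with active hormone.

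The start regions of both deiodinase genes are shown because these 2 genes moved in opposite directions and because cyclic AMP is a known inducer of Dio2. Each runs from 250 bases before to 50 bases after the annotated start of transcription, 5′ to 3′ on the strand of the gene, in RefSeq's GRCm38.p6. Capitals mark the cyclic AMP response element TGACGTCA.
Dio2, minus strand, chr12:90738989-90739288: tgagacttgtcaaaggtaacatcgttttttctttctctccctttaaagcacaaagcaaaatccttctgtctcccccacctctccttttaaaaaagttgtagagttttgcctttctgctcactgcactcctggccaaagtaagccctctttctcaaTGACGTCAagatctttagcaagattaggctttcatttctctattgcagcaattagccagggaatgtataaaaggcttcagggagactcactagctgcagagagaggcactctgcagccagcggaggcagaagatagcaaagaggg
Dio3, plus strand, chr12:110278980-110279279: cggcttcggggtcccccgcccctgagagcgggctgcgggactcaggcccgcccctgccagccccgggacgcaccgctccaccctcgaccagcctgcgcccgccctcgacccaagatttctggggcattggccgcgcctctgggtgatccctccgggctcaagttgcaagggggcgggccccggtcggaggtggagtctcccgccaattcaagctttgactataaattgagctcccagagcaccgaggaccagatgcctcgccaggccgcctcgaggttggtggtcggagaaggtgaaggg

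Motifs were searched as exact letters on both strands, namely TGACGTCA, the TCF/LEF sequences CTTTGAA and CTTTGAT, and the thyroid hormone receptor half-site AGGTCA. In Dio2 TGACGTCA began 95 bases before the start, and this element occurs in 1.79% of 32851 mouse start regions of the same length. Neither of these TCF/LEF sequences lay in the Dio2 or Dio3 window, and variants of their letters were not searched. Of all windows 5.13% held CTTTGAA and 3.73% held CTTTGAT. Start regions were available for 5 of the 7 genes, Thrb with 2 of them, and the only other match was an AGGTCA in 1 of the Thrb windows, a sequence found in 16.3% of all windows. A match is a description of the sequence and no evidence of binding, and the absence of a match says nothing about sequence outside these windows.

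The array signals were background-corrected intensities, divided here by the 75th percentile of each array and put on a log2 scale, so that a level of 0 equals that percentile. The percentile lay between 631 and 807 intensity units, 60.4% to 65.2% of probes were well above background, and no spot was saturated. Replicate arrays correlated across the 20090 features tested at r = 0.992 to 0.996. The Ro and control arrays shared 1 slide and the washout arrays another, and washout, slide and culture age cannot be told apart. The number of arrays limits the precision, since with 2 arrays per group the smallest two-sided p of an exact permutation test is 0.333. Every adjusted p below is from limma with the spread pooled across genes and Benjamini-Hochberg adjustment over all features. Each change is a difference of group means on the log2 scale ± its standard error, with 2 arrays per group, and the 3 comparisons share arrays with each other.

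Dio2 RNA was far higher in Ro cultures than in either other group. Its level was 0.36 and 0.27 in washout cultures, 6.10 and 5.82 in Ro cultures, and 0.62 and 0.62 in control cultures. The unscaled intensity was 980 and 939 in washout, 55488 and 44029 in Ro, and 1156 and 966 in control. Both Ro arrays thus stood apart by a wide margin, while the levels of washout and control lay close together. Ro exceeded control by 5.34 ± 0.11 (40.6-fold), the value for which Dio2 was chosen, so that it is given without a test. Washout was lower than Ro by a change of -5.65 ± 0.11 (50.0-fold lower), which shares the Ro arrays and is likewise given without a test. Among 17791 features above background on all 6 arrays, the rise in Ro ranked 9 from the highest and the washout minus Ro difference ranked 5 from the lowest. Among all 20090 features tested these ranks were 23 and 14. Since Dio2 was chosen for a large rise in Ro, a high rank was fixed by that choice and is a description only. Washout minus control was -0.30 ± 0.11 and shares the control arrays with the value that chose Dio2, so that it too has no test. The arrays of these 2 groups did not overlap, and control stood slightly above washout.

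Dio3, the inactivating enzyme, moved the other way. Its level was 1.41 and 1.16 in washout, -0.003 and 0.105 in Ro, and 0.96 and 0.84 in control. Ro lay below both other groups and no groups overlapped. Dio3 fell in Ro relative to control by 0.85 ± 0.11 (1.80-fold lower, adjusted p = 0.0041). It was higher in washout than in Ro by 1.24 ± 0.11 (2.36-fold, adjusted p = 0.0012). Washout stood 0.39 ± 0.11 above control, which did not pass the test (adjusted p = 0.101). Dio1, the third deiodinase, known mainly from liver and kidney, was well above background on only 1 array and was not tested.

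**Figure D1:**
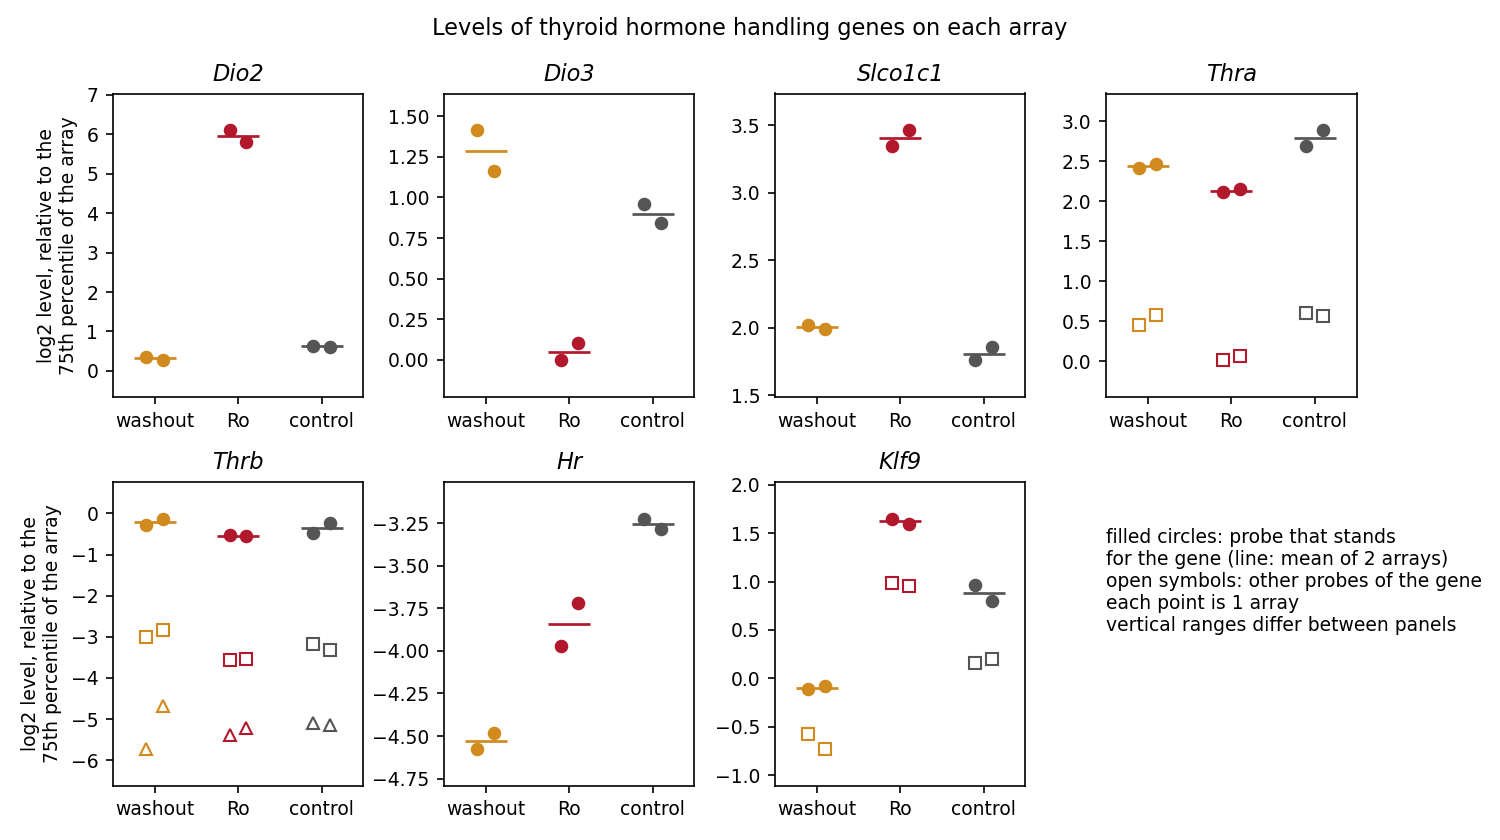
Levels of the 7 genes on each of the 6 arrays (vertical axis: log2 signal relative to the array's 75th percentile; horizontal axis: washout, Ro and control, 2 arrays each). Filled circles are the probe that stands for the gene, with lines at the means, and open symbols are other probes that passed the filter; Dio2 and Slco1c1 are highest in Ro, Dio3 and Thra lowest in Ro, and Hr and Klf9 lowest in washout.

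Slco1c1, which encodes a transporter with high affinity for thyroxine, rose in Ro. Its level was 2.02 and 1.99 in washout, 3.35 and 3.46 in Ro, and 1.76 and 1.86 in control. Ro exceeded control by 1.60 ± 0.08 (3.03-fold, adjusted p = 0.00027), and washout was lower than Ro by a change of -1.40 ± 0.08 (2.64-fold lower, adjusted p = 0.00036). Washout was 0.20 ± 0.08 above control, which did not pass the test (adjusted p = 0.189). In the brain Slco1c1 is also known from the endothelium of capillaries. The endothelial genes Pecam1, Cldn5 and Cdh5 were not well above background on both arrays of any group, Tek was not used here, and Flt1 was lower in Ro than in control (-0.38 ± 0.11, adjusted p = 0.039). The part of endothelial cells in the Slco1c1 levels was not tested.

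Of 10 transporter genes listed for thyroid hormone, Slco1c1 among them, 8 were well above background on all 6 arrays. In Ro minus control 5 of the 8 passed as higher and 3 as lower. Of all features 42.1% passed there (19.4% as higher and 22.7% as lower), and of the 17791 above background on all arrays 42.6% (19.6% as higher and 23.0% as lower). The median change of the 8 was 0.49, against 0.0038 over all features. The other 2, Slc16a10 and Slco4a1, passed the filter only through groups in which they were high, so that their values are given without a test. Slc16a10, which carries aromatic amino acids and triiodothyronine, was not well above background in control or washout. Its level was -5.80 and -5.57 in washout, -1.37 and -1.50 in Ro, and -5.15 and -5.58 in control. It was at least 14.2-fold higher in Ro than in control and at least 10.5-fold lower in washout than in Ro. For such bounds the dim group was set at the lowest signal called above background on each array, or at its own signal where that was higher.

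Slc7a8, the light chain of an amino acid exchanger that also carries thyroid hormone, had levels of 3.68 and 3.65 in Ro and 1.24 and 1.13 in control, a rise of 2.48 ± 0.07 (adjusted p = 0.00011). Further transporters were named after their values were seen. The related light chain Slc7a5 rose by 0.67 ± 0.08 (adjusted p = 0.0026), while Slc3a2, the heavy chain that both pair with, fell by 0.49 ± 0.08 (adjusted p = 0.0075). Slco2b1, an organic anion transporter gene, rose by 0.54 ± 0.08 (adjusted p = 0.0049).

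Slco1a4 and Slco1a5, organic anion transporters with a broad range of substrates, fell steeply. Slco1a4 had levels of -0.24 and -0.08 in Ro and 2.40 and 2.31 in control, a change of -2.51 ± 0.09 (adjusted p = 0.00013). Slco1a5 changed by -2.10 ± 0.10 (adjusted p = 0.00026). The 2 genes are close relatives, and cross-hybridisation between them was not tested. Slco4a1 was not well above background in Ro and was at least 4.08-fold lower there than in control.

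After washout 3 of the 8 transporters above background on all arrays were higher than in Ro and 4 lower, where 41.5% of all features passed (21.4% as higher and 20.1% as lower). Of features above background on all arrays 22.1% were higher and 19.4% lower there. In that comparison Slco1a4 changed by 2.98 ± 0.09 (adjusted p = 0.00012) and Slc7a8 by -2.20 ± 0.07 (adjusted p = 0.00016). With arrays centred on their medians, the features that passed were 3442 higher and 5046 lower, against 4294 and 4038 here, and the median of all features moved to -0.11. Against control 2 of the 8 passed, where 10.1% of all features passed (4.11% as higher and 5.95% as lower) and 9.17% of those above background on all arrays (3.99% as higher and 5.18% as lower). These were Slco1a4 (0.46 ± 0.09, adjusted p = 0.037) and Slco1a5 (0.51 ± 0.10, adjusted p = 0.046), both higher in washout. Slco1a4 was named for the size of its change in Ro minus control, and Slco1a5 was named after its values were seen.

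Thra, which encodes the receptor form most abundant in brain, was lower in Ro. Its stronger probe had levels of 2.41 and 2.46 in washout, 2.11 and 2.15 in Ro, and 2.69 and 2.88 in control, with no overlap between groups. Ro was lower than control by a change of -0.66 ± 0.09 (1.58-fold lower, adjusted p = 0.0044). The other probe, annotated with the same transcript, gave -0.54 ± 0.08. Washout exceeded Ro by 0.31 ± 0.09 (adjusted p = 0.046). That call was lost in 12 of 19 alternatives, among them omission of Ro 1 (adjusted p = 0.193), Ro 2 (0.149), washout 1 (0.097) or washout 2 (0.129). The other probe gave 0.48 ± 0.08 there (adjusted p = 0.0090 over all probes). Washout minus control did not pass for the stronger probe (-0.35 ± 0.09, adjusted p = 0.076), and the other probe gave -0.06 ± 0.08.

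Thrb, the second receptor gene, did not pass the test in any comparison. Its strongest probe had levels of -0.27 and -0.13 in washout, -0.52 and -0.55 in Ro, and -0.47 and -0.23 in control. Ro lay below both other groups, while washout and control overlapped. Ro minus control was -0.19 ± 0.11 (adjusted p = 0.211), washout minus Ro 0.34 ± 0.11 (adjusted p = 0.059), and washout minus control 0.14 ± 0.11 (adjusted p = 0.444). The washout minus Ro value passed in 6 of 19 alternatives, among them the fit of only the 2 groups compared (adjusted p = 0.046). Omission of control 1 or control 2 repeats that fit, so that these are not separate results. Adjusted p lay between 0.024 and 0.146 over the alternatives that omitted no single array. With a Ro or washout array omitted the change was 0.26 to 0.41. A dimmer Thrb probe gave -0.31 ± 0.09, 0.63 ± 0.09 and 0.32 ± 0.09 in the same 3 comparisons, and passed for washout minus Ro when all 26473 probes kept were tested singly (adjusted p = 0.0062). Of the other 2 probes 1 was well above background in control alone and 1 on no array. Among the retinoid X receptors, the partners of both receptors on DNA, Rxra (-0.03 ± 0.08, adjusted p = 0.771) and Rxrb (-0.18 ± 0.10, adjusted p = 0.221) did not pass in Ro minus control. Rxrg was lower in Ro (-0.86 ± 0.12, adjusted p = 0.0051) and also in washout (-1.03 ± 0.12, adjusted p = 0.016) than in control. Of the 5 receptor genes 2 thus passed in Ro minus control, both as lower, with a median change of -0.19, a share near the 42.1% of all features. In washout minus Ro only Thra of the 5 passed, and in washout minus control only Rxrg.

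Hr and Klf9, both known as direct targets of the liganded receptors, took different courses under Ro and were both lowest after washout. Klf9, a zinc finger transcription factor that glucocorticoids also induce, had levels of -0.12 and -0.08 in washout, 1.65 and 1.60 in Ro, and 0.96 and 0.80 in control. The 3 groups were fully separated, with Ro highest and washout lowest. Klf9 rose in Ro by 0.74 ± 0.08 (1.68-fold, adjusted p = 0.0024). Washout was lower than Ro by a change of -1.72 ± 0.08 (3.30-fold lower, adjusted p = 0.00026) and lower than control by a change of -0.98 ± 0.08 (1.97-fold lower, adjusted p = 0.0088). The last call was lost with no filter on dim probes (adjusted p = 0.053). The other Klf9 probe gave 0.79 ± 0.08, -1.62 ± 0.08 and -0.83 ± 0.08 in the same order, although it lay in a bright region on the first washout array.

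Hr, a nuclear corepressor that is a standard marker of hormone action in brain, was dim, with levels of -4.57 and -4.48 in washout, -3.97 and -3.72 in Ro, and -3.23 and -3.28 in control. It was well above background on all 6 arrays, and the groups did not overlap. Hr was lower in Ro than in control by a change of -0.59 ± 0.11 (1.51-fold lower, adjusted p = 0.011), a call lost when control 1 was omitted (adjusted p = 0.054) or when Ro 1 was (0.052). Washout was lower than Ro by a change of -0.68 ± 0.11 (1.61-fold lower, adjusted p = 0.0065). Washout was lower than control by a change of -1.28 ± 0.11 (2.42-fold lower, adjusted p = 0.0085), which was lost without control 2 (adjusted p = 0.058) and with no filter on dim probes (adjusted p = 0.052). Among features above background on all arrays this difference ranked 41 from the lowest. Sizes for this dim probe depended on the background correction: the normexp method, applied to the median spot signal, gave -0.38, -0.26 and -0.64 in the 3 comparisons, all with the same sign and past the threshold.

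**Figure D2:**
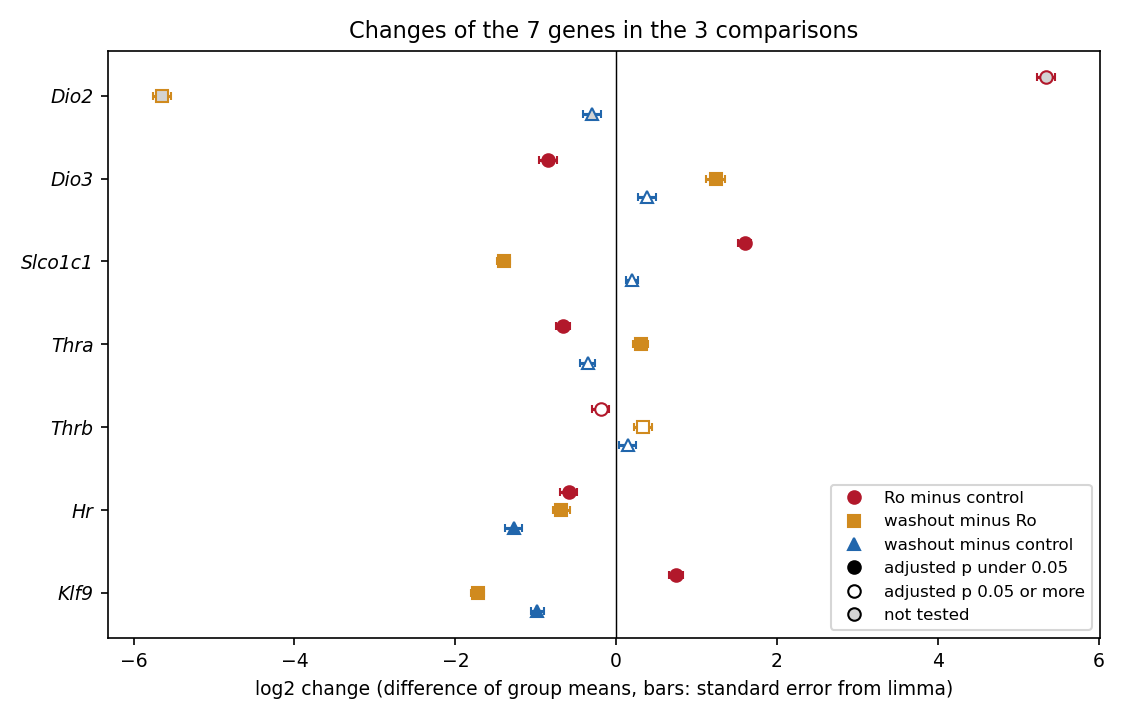
Changes of the 7 genes in the 3 comparisons (horizontal axis: difference of group means on the log2 scale, with standard errors from limma; 1 row of 3 points per gene). Filled points passed an adjusted p of 0.05, open points did not, and grey points mark the Dio2 contrasts given without a test; in washout minus control only Hr and Klf9 are filled.

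Counted together, 5 of the 6 members tested in Ro minus control passed, 2 as higher and 3 as lower, against 42.1% of all features. In washout minus Ro 5 of 6 passed, 2 as higher and 3 as lower, against 41.5%. In washout minus control 2 of 6 passed, both as lower, against 10.1% (5.95% as lower). The median absolute change of the 7 genes was 0.74 in Ro minus control, against 0.31 over all features, and 0.35 in washout minus control, against 0.17. The members were chosen with these data in view, so that the counts describe the genes and are no test of the set.

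Other genes known to respond to thyroid hormone in brain or liver went both ways in Ro. Of 10 listed, Hr and Klf9 included, 4 rose and 4 fell, with a median change of -0.26, where 19.4% of all features were higher and 22.7% lower. Thrsp, a liver regulator of lipid synthesis, rose by 0.69 ± 0.08 (adjusted p = 0.0022). Mbp, a myelin protein gene, changed by -1.11 ± 0.16 (adjusted p = 0.0054) and Camk4, a neuronal calcium-dependent kinase gene, by -1.05 ± 0.08 (adjusted p = 0.00090). Mbp is an oligodendrocyte gene, and the levels of oligodendrocyte precursor markers given below fell in the same cultures. The part of such cells in the Mbp change was not tested. In washout minus control 2 of the 10 passed, Hr and Klf9, against 10.1% of all features, with Camk4 at -0.39 ± 0.08 (adjusted p = 0.051) and Thrsp at -0.27 ± 0.08 (adjusted p = 0.090).

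Crym, which encodes a cytosolic protein that binds triiodothyronine, was higher in Ro. Its level was 3.33 and 3.16 in washout, 5.01 and 5.01 in Ro, and 3.11 and 3.09 in control. Ro exceeded control by 1.91 ± 0.08 (adjusted p = 0.00021), and washout minus Ro was -1.77 ± 0.08 (adjusted p = 0.00025). Transthyretin, a carrier of thyroxine made by the choroid plexus and encoded by Ttr, was not well above background on any array.

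Type 2 deiodinase is removed by ubiquitin-dependent degradation when it meets its substrate, and 6 genes of that pathway were measured. In Ro minus control 1 rose and 2 fell, a share near the 42.1% of all features. The ligase gene Marchf6 fell by 0.46 ± 0.07 (adjusted p = 0.0075) and Usp20, a deubiquitinase gene, by 0.35 ± 0.08 (adjusted p = 0.020), while the conjugating enzyme gene Ube2g2 rose by 0.49 ± 0.09 (adjusted p = 0.010). Both deiodinases contain selenocysteine. None of 7 genes for selenoprotein synthesis passed in Ro minus control in limma, with 0 of 7 at an unadjusted p under 0.05, and their median change was 0.08. Of 9 coregulators of the receptors 3 rose and 1 fell, again near that 42.1%, with the coactivator Ncoa3 at 1.42 ± 0.08 (adjusted p = 0.00037), Tbl1x, whose probe lay in a bright region on the first washout array, at 0.37 ± 0.08 (adjusted p = 0.016) and Tbl1xr1 at -0.35 ± 0.08 (adjusted p = 0.019). In washout minus Ro 1 coregulator passed as higher and 3 as lower. Of the ubiquitin genes 3 passed there as higher and 1 as lower, and of the selenoprotein genes 2 as lower. Of all features 21.4% were higher in that comparison and 20.1% lower. In washout minus control 0 coregulator, 0 ubiquitin and 0 selenoprotein genes passed in limma, with 2, 1 and 2 at an unadjusted p under 0.05.

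**Figure D3:**
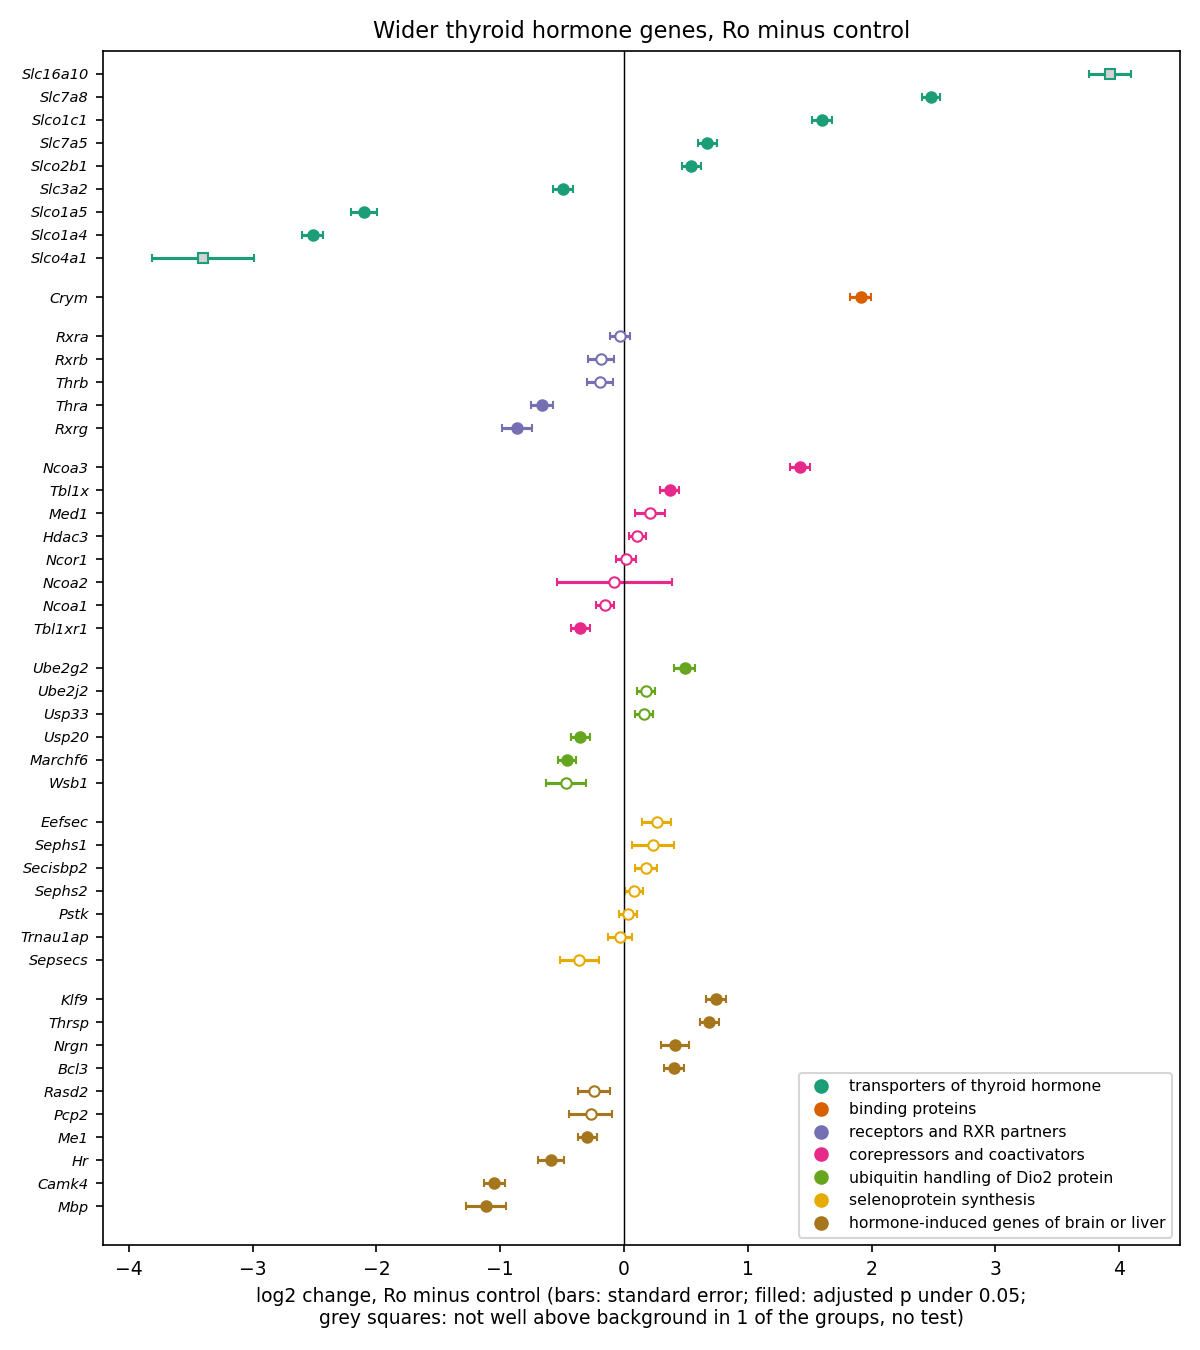
Changes in Ro minus control for the wider lists of thyroid hormone genes (horizontal axis: log2 change with standard error; 1 row for each gene shown, coloured by role). Filled points passed an adjusted p of 0.05, and the grey squares, Slc16a10 and Slco4a1, were not well above background in 1 of the 2 groups, so that they have no test and their sizes are bounds in the text; transporters lie on both sides of 0, and no selenoprotein synthesis gene is filled.

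Markers of the astrocytes and of other cells moved with the treatment, and in bulk RNA fewer cells of a type and less RNA per cell cannot be told apart. All 8 astrocyte markers were well above background on every array. Marker counts in Ro minus control stand against 19.4% of all features higher and 22.7% lower. Of the 8 astrocyte markers 2 rose and 5 fell, with a summed level, on a linear scale relative to the 75th percentile, of 147 to 155 in washout, 112 to 118 in Ro, and 156 to 162 in control. Of tanycyte markers, cells known for Dio2, Gpr50 did not pass (0.10 ± 0.15, adjusted p = 0.647), Col23a1 rose by 2.24 ± 0.09 (adjusted p = 0.00018), Scn7a was well above background on only 1 array and Rax was not used here. The summed level of Gpr50 and Col23a1 was 0.236 to 0.248 in washout, 0.642 to 0.687 in Ro, and 0.177 to 0.206 in control. Col23a1 made 64.8% to 89.95% of this sum.

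All 4 ependymal markers fell in Ro, with a summed level of 47.6 to 52.6 in washout, 15.7 to 18.5 in Ro, and 48.3 to 48.6 in control. All 4 oligodendrocyte precursor markers fell, with sums of 14.9 to 15.8 in washout, 6.04 to 6.05 in Ro, and 24.2 to 24.5 in control, of which Olig1 made 73.2% to 77.2%. Of 4 microglial markers above background on all arrays 3 fell and 1 rose in Ro, and with Itgam, which was not, the sums were 1.79 to 1.83 in washout, 1.13 to 1.27 in Ro, and 1.92 to 1.93 in control. The 3 neuronal markers tested fell, with sums of 5.15 to 5.74 in washout, 1.18 to 1.24 in Ro, and 5.31 to 5.37 in control, of which Stmn2 made 91.2% to 97.9%. Of 4 markers of pericytes and smooth muscle 3 fell and 1 rose, with sums of 181 to 184 in washout, 79.5 to 79.9 in Ro, and 248 to 275 in control, of which Acta2 made 95.0% to 97.8%. Of 5 meningeal fibroblast markers 2 rose and 2 fell in Ro, with sums of 6.05 to 7.00 in washout, 10.5 to 11.4 in Ro, and 9.97 to 12.5 in control, of which Col1a1 made 56.7% to 73.9%. In washout minus control, where Hr and Klf9 passed as lower, so did 4 of 5 meningeal fibroblast, 3 of 4 oligodendrocyte precursor, 2 of 4 pericyte and smooth muscle, and 1 of 8 astrocyte markers and the endothelial gene Flt1, while 1 tanycyte marker, Col23a1, passed as higher. Of all features 5.95% were lower there and 4.11% higher. The part of any of these cell types in the levels of the 7 genes was not tested.

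The genes whose profile over the 6 arrays was most like that of Dio2 were Cbln1, Wif1, Dapl1, Slc7a11 and Cxcr6. Likeness was measured as the root-mean-square difference of log2 levels after the mean of each gene was taken off, and was 0.134, 0.149, 0.302, 0.314 and 0.315 in that order, with Pearson's r between 0.993 and 0.999 as a description. Cbln1, a secreted organiser of synapses, had levels of -5.10 and -5.58 in washout, 0.23 and 0.10 in Ro, and -5.06 and -5.06 in control. Wif1, a secreted Wnt inhibitor, exceeded control in Ro by 5.32 ± 0.13, against 5.34 for Dio2. Dapl1 exceeded control by 4.69 ± 0.14, the cystine transporter gene Slc7a11 by 5.06 ± 0.23 and the chemokine receptor gene Cxcr6 by 5.19 ± 0.27. Cbln1, Wif1 and Slc7a11 were not well above background in washout, so that only bounds hold there (Cbln1 at least 31.9-fold, Wif1 48.2-fold and Slc7a11 46.2-fold lower in washout than in Ro), while Dapl1, Cxcr6 and Dio2 were above background on all 6 arrays.

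**Figure D4:**
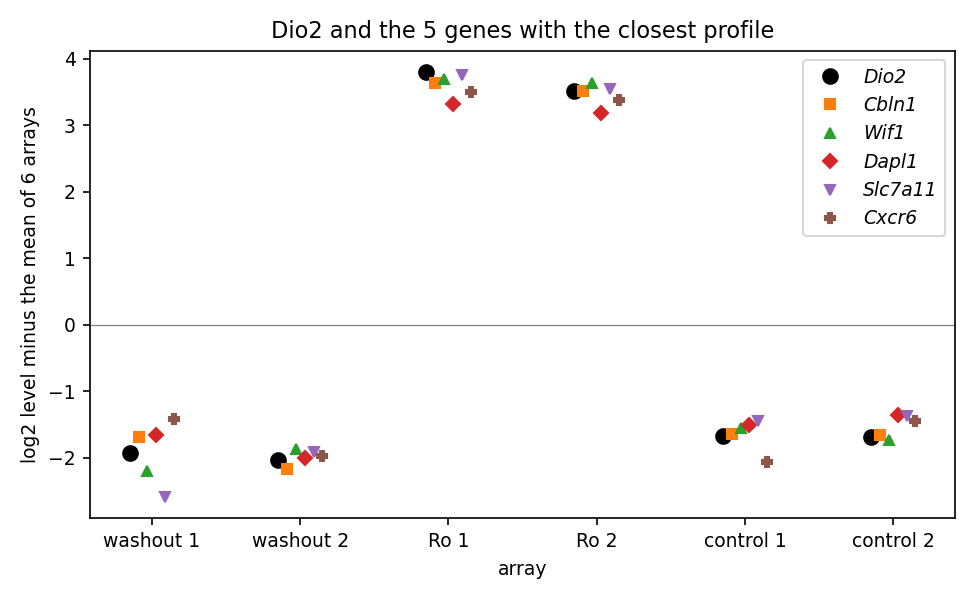
Profiles of Dio2 and of the 5 genes most like it (vertical axis: log2 level minus the gene's mean over 6 arrays; horizontal axis: each array, washout, Ro and control). All 6 genes lie above their mean on both Ro arrays and below it on the other 4 arrays.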

How the data were processed

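Total RNA, labelled with Cy3, was measured on 6 one-colour Agilent arrays. Per the file headers, the deposited intensities were extracted with Agilent Feature Extraction 10.5.1.1 and background-corrected by that software; the submitters' processing notes name version 10.1. The authors' deposited value table holds a ratio per probe that matched these signals after each probe was centred (lowest r = 0.997), and served as an alternative. Of 41174 probes, 106 flagged as outliers were left out, and 26473 were kept that stood well above background on each array of 1 or more groups. The brightest probe stood for each gene, leaving 20090 features. Each array was scaled to its 75th percentile, and the comparisons were made in R 4.3.3 with limma 3.58.1 (1 fit of all 6 arrays, two-sided, Benjamini-Hochberg adjustment, threshold 0.05). In simulated data with 200 of 20090 features changed, limma recovered 78.85% of 2-fold and 95.3% of 4-fold changes. Of its calls 5.64% and 6.4% were false, slightly above the threshold. In the data 42.1% of features passed in Ro minus control, so the simulation differs from them in the share changed. Probes were named through accessions in a RefSeq table, which gave a symbol to 61.0% of them.

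The members and lists were chosen with earlier results of these data known. Genes named were the members, up to 4 genes per list with the largest change in Ro minus control among those that passed, and the 5 profiles closest to Dio2, with others named as such. Of the listed genes 2 are counted but not reported singly here. Deviations from the group means of arrays with the same replicate number correlated at -0.12 to 0.08, so the numbers were not taken to pair the samples. Alternatives covered the normalization, background correction, filter, variance model, probe choice, groups in the fit, replicate block and omission of each array.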

Additional observations from a re-analysis of the deposited data

How the results depend on the processing

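Over 18 tested changes of 6 genes and 19 alternatives, 311 of 342 values kept their direction and their side of the threshold, 23 no longer passed, 8 passed newly and 0 reversed. Altering the filter, fold minimum, variance model, groups in the fit or replicate block left the changes of these genes as they were. Omission of an array outside a comparison did the same, and no direction could reverse under any of these. Such an omission repeats the fit of only the 2 groups compared, so that the 342 values include repeats and are not all separate checks. The Dio2 changes, which have no test, ranged over 5.20 to 5.48 in Ro minus control, -5.79 to -5.50 in washout minus Ro and -0.36 to -0.25 in washout minus control. Over all features, a fold minimum of 2 left 866 higher and 1396 lower in Ro minus control, 1327 and 984 in washout minus Ro, and 180 and 256 in washout minus control, and left 1, 3 and 1 of the 6 genes called. With no filter 2476 were higher in Ro minus control, 2666 lower in washout minus Ro, and 62 higher and 72 lower in washout minus control, where 0 of the 6 genes were called by limma. An intensity trend with a robust prior gave 1326 higher and 4 of the 6 genes in washout minus control, adding Dio3 (adjusted p = 0.035) and Thra (0.022). Fitting only the 2 groups compared gave 313 higher and 438 lower there. The causes were not tested.

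With replicate number as a block, 296 features were higher and 468 lower in washout minus control, and Thra lost its call in washout minus Ro (adjusted p = 0.066); the block changed no other call of the 6 genes. Exchanging the numbers of the Ro arrays, chosen after seeing the data, gave 732 and 925, and leaving out probes in bright regions, likewise added, gave 729 and 1174.

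Omitting 1 array at a time gave 1823 to 4097 higher and 2701 to 4706 lower features in Ro minus control with 4 to 5 of the 6 genes called, 2660 to 4085 and 2091 to 3736 in washout minus Ro with 4 to 6 called, and 83 to 590 and 119 to 730 in washout minus control with 1 to 2 called. In Ro minus control the upper ends came from omission of a washout array, which lies outside that comparison. The 6 called in washout minus Ro likewise came from omission of a control array. Omission of an array within a comparison always lowered the number of features higher and lower there, relative to the main fit. Low signal limits the values of Hr and the dim Thrb probes.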
